A study of Mus musculus with 6 samples.

Results

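Aminoacyl-tRNA synthetases are the enzymes that join each amino acid to its transfer RNA. The genes described here were rows of the count table whose symbol has the form of a synthetase symbol, a single amino acid letter followed by ARS with an optional suffix, or EPRS. The rule used symbols alone and no measured value, but it was chosen with earlier results of these data known. The genes number 36 of 31456 rows, of which 20 encode cytosolic enzymes (no suffix, A or B) and 16 encode mitochondrial enzymes (suffix 2). All 36 were abundant enough to be tested, with 160 to 18520 counts per library. The table uses older symbols, so that AARS is the gene now named AARS1.

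The libraries were bulk RNA sequencing of HCT116, an established human colorectal carcinoma line. There were 3 libraries of the parental line and 3 of an oxaliplatin-resistant form, each numbered 1 to 3, and oxaliplatin is a platinum drug that damages DNA. The labels give no further genotype, no drug exposure at harvest, no way in which the resistant form was derived, and no statement on whether it is 1 clone. Nor do they state that replicates were grown separately, and the spread behind each p-value may therefore be technical. The labels name mouse as the organism, whereas 30616 rows carry human Ensembl identifiers. The study looked for genes behind oxaliplatin resistance by comparing these lines, and the synthetases were compared in the same way.

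Each cell needs one set of synthetases for protein synthesis in the cytosol and another for the ribosomes inside mitochondria. Both sets are encoded in the nucleus. KARS (lysine) and GARS (glycine) each give both enzymes from 1 gene, so neither amino acid has a suffix 2 gene. Mitochondria make glutaminyl-tRNA by amidating a glutamate charged by EARS2, so glutamine has none either. In the cytosol EPRS joins glutamate and proline activities in 1 protein, and FARSA and FARSB are the subunits of the phenylalanine enzyme. Several cytosolic enzymes sit in a multi-synthetase complex with the scaffold proteins AIMP1, AIMP2 and EEF1E1. When uncharged tRNA accumulates, the kinase EIF2AK4 (GCN2) raises translation of the transcription factor ATF4, and many cytosolic synthetase genes are known ATF4 targets.

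Total counts were 20246878 to 32138423 per library. The 6 epithelial markers EPCAM, KRT8, KRT18, KRT19, CDH1 and CLDN4 were detected in all libraries, at 41.5 CPM or more (counts scaled to library size with normalization factors). The summed level of the fibroblast markers COL1A2, COL3A1, DCN and LUM was 0 to 0.113 CPM in the parental and 0.321 to 0.410 CPM in the resistant libraries. The leukocyte markers PTPRC, CD74 and LAPTM5 summed to 0.260 to 0.639 CPM and 0.694 to 1.005 CPM. PTPRC, a defining leukocyte marker, had no count in 4 of the 6 libraries, and DCN and LUM had none in any parental library. Parental replicate 2 stood apart. Compared pair by pair, its counts gave a chi-square per gene of 11.3 against parental replicate 1 and 11 against parental replicate 3, whereas those 2 gave 2.01 and the resistant pairs 2.69 to 4.51 (sampling noise alone gives about 1).

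The mitochondrial enzyme genes were mostly lower in the resistant cells, and the cytosolic ones moved both ways. Of 16 mitochondrial genes 11 fell, 1 rose and 4 missed the threshold (adjusted p under 0.05, edgeR's quasi-likelihood test with Benjamini-Hochberg adjustment over 16605 genes). Of 20 cytosolic genes 9 fell, 5 rose and 6 did not pass. The background was high: 53.8% of all tested genes passed, 27.3% higher and 26.5% lower. Against this, 68.8% of the mitochondrial genes fell and 6.25% rose, and 45.0% of the cytosolic genes fell and 25.0% rose. The median log2 fold change was -0.36 for the mitochondrial genes, -0.07 for the cytosolic genes and 0.02 for all tested genes. When counts were scaled by library sizes alone these medians were -0.26, 0.03 and 0.11, so the cytosolic median changed sign and the mitochondrial one did not. In that fit 65.3% of all called genes were higher, against 50.8%. On FPKM, the per-length scale of the second deposited table, the cytosolic median was also positive, at 0.03. The mitochondrial median there was -0.25 to -0.23, and that of all genes 0.02 to 0.06. In bulk RNA a lower level per cell and fewer cells with the transcript cannot be told apart.

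The changes were small. Only VARS and WARS2 among the 36 passed with a change of at least 1.5-fold, against 3067 of all 16605 tested genes. The groups did not overlap for 26 of the 36 genes (72.2%), against 61.2% of all tested genes, and these were the same 26 genes that passed the test. Without parental replicate 2 there were 11 mitochondrial genes lower and 1 higher, and 10 cytosolic genes lower and 5 higher.

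**Figure D1:**
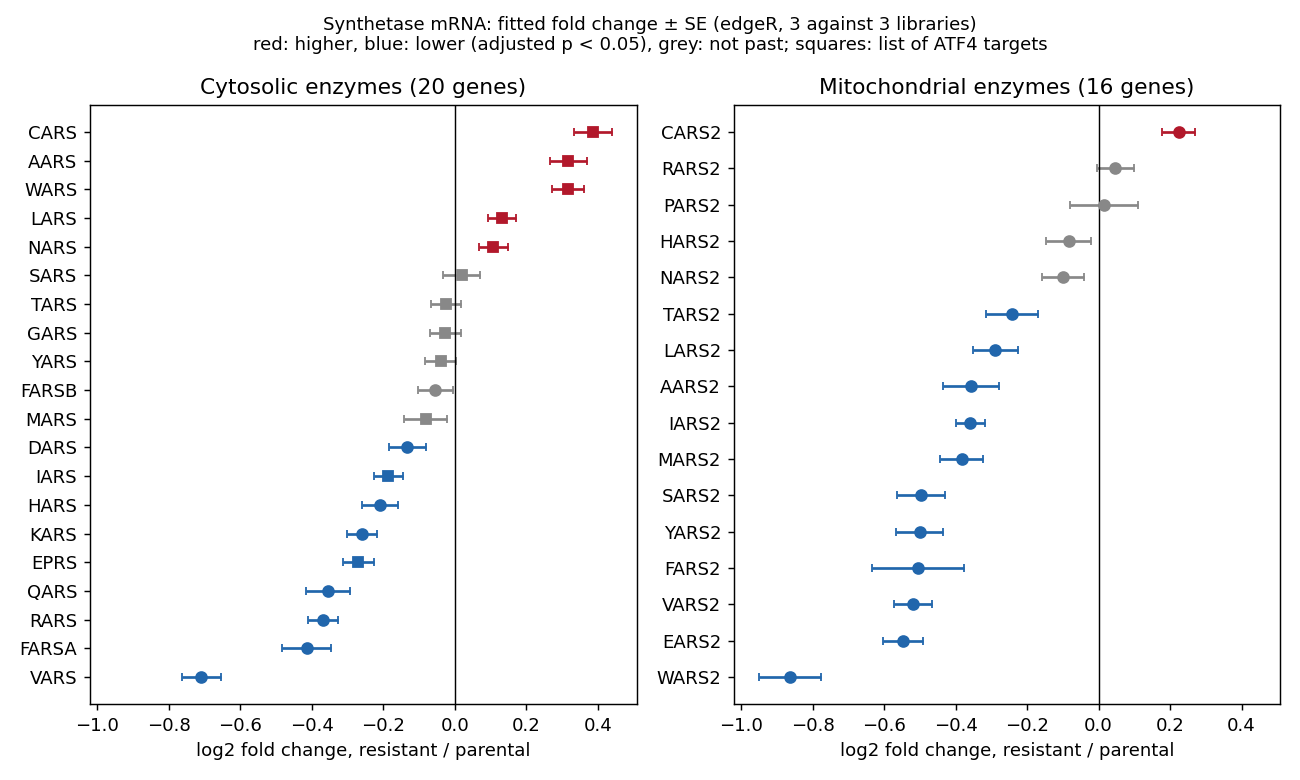
Fitted log2 fold change (resistant over parental, horizontal axis) with its SE for each of the 20 cytosolic and 16 mitochondrial genes, 3 libraries a group; red marks genes past the threshold higher, blue lower, grey not past, and squares the known ATF4 targets. In the mitochondrial panel 11 genes are blue and only CARS2 is red, and the 5 red cytosolic genes are all squares. The list behind the squares was chosen with earlier results of these data known.

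Among the mitochondrial enzymes WARS2 (ENSG00000116874.11), which charges tryptophan, fell most. It had 24.5, 20.4 and 25.5 CPM in parental replicates 1, 2 and 3 and 13.2, 12.2 and 13.1 CPM in resistant replicates 1, 2 and 3. Every resistant library lay below every parental library, and the level was 1.82-fold lower (log2 fold change -0.86 ± 0.09 SE, edgeR adjusted p = 6.7e-06). On the second deposited table, taken as FPKM (a per-length scale), the fall of WARS2 was smaller. It went from 4.16 ± 0.385 to 3.17 ± 0.236 FPKM (SD, n = 3), a log2 fold change of -0.38 with a pseudocount of 0.1 (limma adjusted p = 0.033). With a pseudocount of 1 and no filter it was -0.31 and not past the threshold (limma adjusted p = 0.067), and over all alternatives the adjusted p ranged from 7.5e-29 to 0.067. FPKM per CPM for WARS2 was 0.177 to 0.191 in the parental and 0.233 to 0.251 in the resistant libraries, the widest spread of any member. An antisense transcript, WARS2-AS1, rose from 11.5 ± 1.07 to 15.7 ± 0.238 CPM (SD, n = 3; edgeR adjusted p = 3.7e-04). Use of strand in the counting is not given in the sources used here, so reads of the overlapping genes cannot be told apart, and their part in the difference was not tested. Among the cytosolic genes the same limit holds for GARS, beside which GARS-DT rose 1.42-fold (edgeR adjusted p = 4.2e-05), and for DARS, although DARS-AS1 had only 6 to 19 counts per library.

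EARS2 (ENSG00000103356.15), the glutamate enzyme that also starts glutaminyl-tRNA synthesis, had 56.6, 60.5 and 55.1 CPM in the parental and 38.6, 41.1 and 38.4 CPM in the resistant libraries. That was 1.46-fold lower with no overlap (log2 fold change -0.55 ± 0.06 SE, edgeR adjusted p = 7.8e-06). Its groups lay farther apart than the libraries of either group. VARS2 (ENSG00000137411.17), the valine enzyme, had 47.5, 48.6 and 45.9 CPM against 33.7, 33.8 and 31.7 CPM and was 1.43-fold lower (edgeR adjusted p = 8.3e-06). YARS2 (ENSG00000139131.12), the tyrosine enzyme, had 34.8, 32.2 and 31.4 CPM against 23.7, 21.7 and 24.2 CPM and was 1.41-fold lower (edgeR adjusted p = 5.1e-05). FARS2 (ENSG00000145982.12), the phenylalanine enzyme, was the least certain of these. Its 11.1, 11.5 and 8.71 CPM in the parental libraries nearly met the 6.43, 8.52 and 7.21 CPM of the resistant libraries, a 1.42-fold lower level on 160 to 354 counts (edgeR adjusted p = 0.0061). On FPKM neither YARS2 nor FARS2 passed (limma adjusted p = 0.055 and 0.085 with a pseudocount of 0.1, within ranges over all alternatives that end at 0.12 and 0.18).

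Falls of 1.18-fold to 1.41-fold were measured for the other mitochondrial genes that passed, SARS2 (serine), MARS2 (methionine), IARS2 (isoleucine), AARS2 (alanine), LARS2 (leucine) and TARS2 (threonine). IARS2 (ENSG00000067704.10) stood far above the others in level and went from 264, 272 and 269 CPM to 212, 206 and 210 CPM (edgeR adjusted p = 1.7e-05). It made up 30.6% to 33.3% of the summed CPM of the 16 genes. That sum was 808 to 836 CPM in the parental and 667 to 674 CPM in the resistant libraries, and without IARS2 it was 539 to 564 CPM and 458 to 468 CPM, so the groups were apart with and without this gene. TARS2 passed by little (edgeR adjusted p = 0.015, range 0.0010 to 0.65 over its alternatives). The TARS2 call was lost with library sizes alone (adjusted p = 0.10), without resistant replicate 3 (0.069) and on FPKM (0.56 to 0.65). LARS2 and AARS2 held in every count fit. On FPKM AARS2 did not pass in any fit (limma adjusted p = 0.084 to 0.16), and LARS2 passed with a pseudocount of 0.1 (0.0485) but not with 1 (0.0503, and 0.099 with no filter).

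CARS2 (ENSG00000134905.17), the cysteine enzyme, was the mitochondrial gene that rose. It had 59.3, 56.2 and 56.5 CPM in the parental and 67.1, 67.6 and 66.2 CPM in the resistant libraries, 1.17-fold higher without overlap (log2 fold change 0.22 ± 0.05 SE, edgeR adjusted p = 0.0018). RARS2 (arginine), PARS2 (proline), HARS2 (histidine) and NARS2 (asparagine) did not pass, with log2 fold changes of 0.05, 0.02, -0.08 and -0.10. With library sizes alone RARS2 passed as higher, with a log2 fold change of 0.14 (edgeR adjusted p = 0.041, range 0.041 to 0.81 over its alternatives). HARS and HARS2 are close copies of each other, so the division of reads between them is uncertain.

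**Figure D2:**
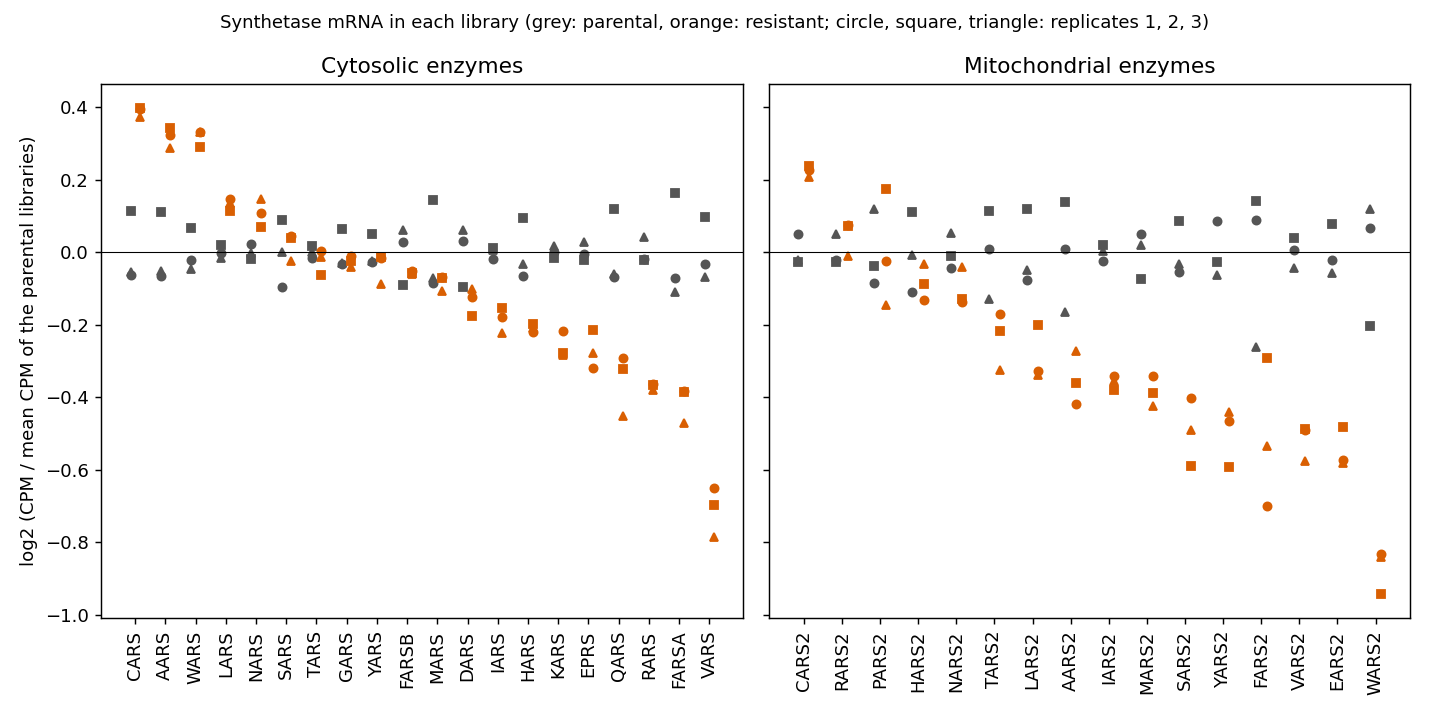
Log2 of CPM over the mean CPM of the parental libraries (vertical axis) for each gene in each of the 6 libraries, with grey for parental, orange for resistant, and circle, square and triangle for replicates 1, 2 and 3. WARS2 and VARS show the widest gaps between the groups.

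The cytosolic enzymes that rose were CARS, AARS, WARS, LARS and NARS. CARS (ENSG00000110619.17), the cysteine enzyme, had 125, 141 and 126 CPM in the parental and 172, 172 and 169 CPM in the resistant libraries. It was 1.31-fold higher without overlap (log2 fold change 0.39 ± 0.05 SE, edgeR adjusted p = 7.4e-05), so that both cysteine enzymes rose. AARS (ENSG00000090861.15), the alanine enzyme, had 312, 352 and 315 CPM against 408, 414 and 399 CPM and was higher by 0.32 on the log2 scale (edgeR adjusted p = 3.0e-04). WARS (ENSG00000140105.18), the tryptophan enzyme and also an interferon-inducible gene, had 140, 148 and 137 CPM against 178, 173 and 178 CPM and was 1.24-fold higher (edgeR adjusted p = 1.1e-04). In all 3 genes parental replicate 2 was the highest parental library and still lay below each resistant library. Unfiltered FPKM ended the call of WARS (limma adjusted p = 0.072, range 1.6e-07 to 0.072 over its alternatives).

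LARS (leucine) and NARS (asparagine) were higher by 1.10-fold and 1.08-fold, close to the threshold (edgeR adjusted p = 0.015 and 0.046). Both calls were lost without parental replicate 1 (adjusted p = 0.068 and 0.10), without parental replicate 3 (0.082 and 0.15), without resistant replicate 1 (0.068 and 0.12) and without resistant replicate 3 (0.058 and 0.19), which left 3 cytosolic genes higher in each case. NARS also missed the threshold in DESeq2 (adjusted p = 0.090), and in edgeR with RLE scaling (0.069) and with no filter (0.24). LARS missed it in edgeR with no filter (adjusted p = 0.11) and on FPKM (0.088 to 0.19). On FPKM NARS rose from 159 ± 4.39 to 199 ± 6.11 (SD, n = 3), a wider gap than in CPM.

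VARS (ENSG00000204394.13), the cytosolic valine enzyme, fell most. It had 337, 368 and 329 CPM in parental replicates 1, 2 and 3 and 220, 213 and 200.1 CPM in resistant replicates 1, 2 and 3. All resistant libraries lay far below the lowest parental one, and the level was 1.64-fold lower (log2 fold change -0.71 ± 0.05 SE, edgeR adjusted p = 6.4e-07). On FPKM it went from 98.3 ± 7.59 to 64.0 ± 4.66 (SD, n = 3), and the log2 fold change was -0.75 to -0.61 over all alternatives. FARSA (ENSG00000179115.11), the alpha subunit of the phenylalanine enzyme, had 109, 128 and 106 CPM against 87.6, 87.4 and 82.4 CPM and was 1.33-fold lower (edgeR adjusted p = 4.1e-04). FARSB (ENSG00000116120.10), its beta subunit, had 136, 126 and 140 CPM against 129, 129 and 128 CPM, with overlapping groups and a log2 fold change of -0.05 ± 0.05 SE (edgeR adjusted p = 0.36). The difference between the subunits was not tested. FARSB was higher by 0.02 on FPKM and by 0.04 with library sizes alone. Without parental replicate 2 FARSB passed as lower, at -0.10 (edgeR adjusted p = 0.038, the lower end of its range over the alternatives).

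RARS (arginine) and QARS (glutamine) were 1.29-fold and 1.28-fold lower (edgeR adjusted p = 1.7e-05 and 4.3e-04). EPRS (ENSG00000136628.18) had 429, 424 and 439 CPM against 345, 371 and 355 CPM and was 1.21-fold lower (edgeR adjusted p = 2.8e-04). KARS and HARS were 1.20-fold and 1.16-fold lower. IARS (ENSG00000196305.17), the isoleucine enzyme, had 589, 602 and 600 CPM against 527, 536 and 511 CPM and was 1.14-fold lower (edgeR adjusted p = 0.0024). DARS (ENSG00000115866.11), the aspartate enzyme, had 146, 134 and 149 CPM against 131, 126 and 133 CPM, so that its groups nearly met (1.10-fold lower, edgeR adjusted p = 0.044). The DARS call was lost without parental replicate 1 or 3 (adjusted p = 0.11 and 0.13) and without resistant replicate 1, 2 or 3 (0.10, 0.15 and 0.068). It was also lost with library sizes alone (edgeR adjusted p = 0.57), with at least 1 CPM in 3 libraries (0.051) and on FPKM. The calls of IARS and HARS were lost with library sizes alone (adjusted p = 0.067 and 0.055) and on FPKM. RARS and EPRS missed the threshold on unfiltered FPKM (limma adjusted p = 0.073 and 0.058, each the upper end of its range over the alternatives). SARS, TARS, GARS, YARS, FARSB and MARS did not pass, with log2 fold changes of -0.08 to 0.02. YARS (ENSG00000134684.10), the tyrosine enzyme, had 289, 305 and 289 CPM against 291, 291 and 277 CPM, so that its groups overlapped while YARS2 fell. SARS passed as higher on FPKM (log2 fold change 0.24, limma adjusted p = 0.010 with a pseudocount of 0.1, range 0.010 to 0.995 over its alternatives).

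Levels of different genes were compared on FPKM, since CPM also scale with gene length. The cytosolic genes had a median of 111 FPKM in the parental and 123.02 FPKM in the resistant libraries, and the mitochondrial genes 17.9 and 14.7 FPKM. IARS had the highest parental level, 204 ± 10.5 FPKM (SD, n = 3), followed by MARS at 193 ± 24.2 and QARS at 180 ± 16.2, and the libraries of these 3 genes overlapped. FARSB was lowest at 26.2 ± 1.49 FPKM, apart from DARS at 56.9 ± 3.68 and CARS at 58.5 ± 2.90 as the next above it. FARSA, the partner of FARSB in the same enzyme, had 77.5 ± 6.84 FPKM. In CPM the parental mean of FARSB was the higher, 134 ± 7.32 against 114 ± 12.0 for FARSA (SD, n = 3), with overlap. The order of these subunits thus rests on FPKM per CPM, 0.1998 to 0.2041 for FARSB and 0.6858 to 0.7102 for FARSA. In the resistant cells MARS at 204 ± 9.95, NARS at 199 ± 6.11 and IARS at 195 ± 4.19 FPKM led within their spread, and QARS had 131 ± 10.2. This order also rests on FPKM per CPM, which for MARS ran from 0.5677 to 0.7875 over the libraries. For NARS it was 0.5122 to 0.5428 in the parental and 0.5536 to 0.594 in the resistant libraries. For QARS it was 0.7977 to 0.8415 and 0.6978 to 0.7401. Of the mitochondrial genes IARS2 led with 81.5 ± 0.847 FPKM in the parental libraries, ahead of CARS2 at 38.4 ± 0.711, and WARS2 was lowest. The summed CPM of the cytosolic genes was 4885 to 5136 in the parental and 4620 to 4722 in the resistant libraries, lower without overlap. This gap depended on the normalization factors. As a share of raw counts the cytosolic genes made up 0.4761% to 0.4915% and 0.4769% to 0.4888%, with overlap. Their summed FPKM was 2303 to 2421 in the parental and 2349.9 to 2394 in the resistant libraries, with overlap, and that of the mitochondrial genes was 335 to 346 and 299 to 305, without overlap.

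**Figure D3:**
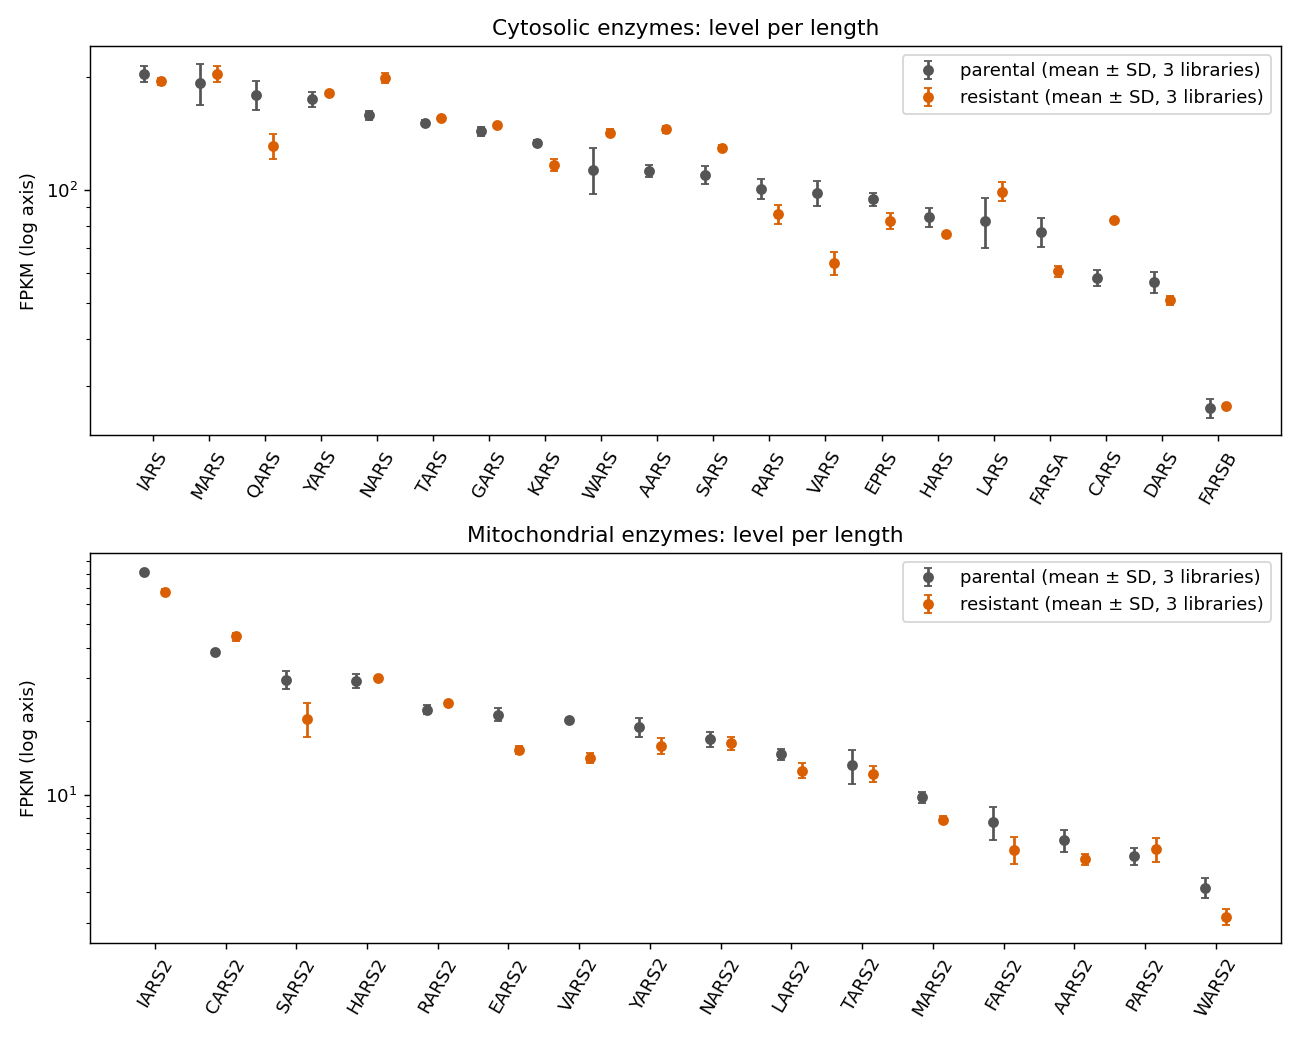
FPKM (log axis, mean and SD of 3 libraries) of the cytosolic genes (top) and the mitochondrial genes (bottom), ordered by the parental level, with grey for parental and orange for resistant. IARS2, at 81.5 FPKM in the parental libraries, lies above 4 of the cytosolic genes, and the other mitochondrial genes lie above FARSB at most.

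The enzymes for the same amino acid were set side by side within each library, where the scaling cancels. There were 17 such comparisons, with EPRS set against both EARS2 and PARS2, and FARS2 against both FARSA and FARSB. The cytosolic gene had the higher fold change in 13 of them and the mitochondrial gene in 4. The log2 ratio of cytosolic to mitochondrial CPM was higher in every resistant library than in every parental library in 11, lower in 4, and overlapped in the 2 with FARS2. For single genes the groups did not overlap in 61.2% of all those tested, and no such share was computed for ratios. The widest gap was for tryptophan, where log2 of WARS over WARS2 was 2.51, 2.87 and 2.43 in the parental and 3.76, 3.83 and 3.77 in the resistant libraries. For alanine log2 of AARS over AARS2 was 3.38, 3.43 and 3.57 against 4.20, 4.16 and 4.02. The ratio went the other way for arginine, where log2 of RARS over RARS2 was 1.84, 1.84 and 1.83 against 1.40, 1.40 and 1.47, and for VARS over VARS2, HARS over HARS2 and EPRS over PARS2. These ratios were not tested.

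**Figure D4:**
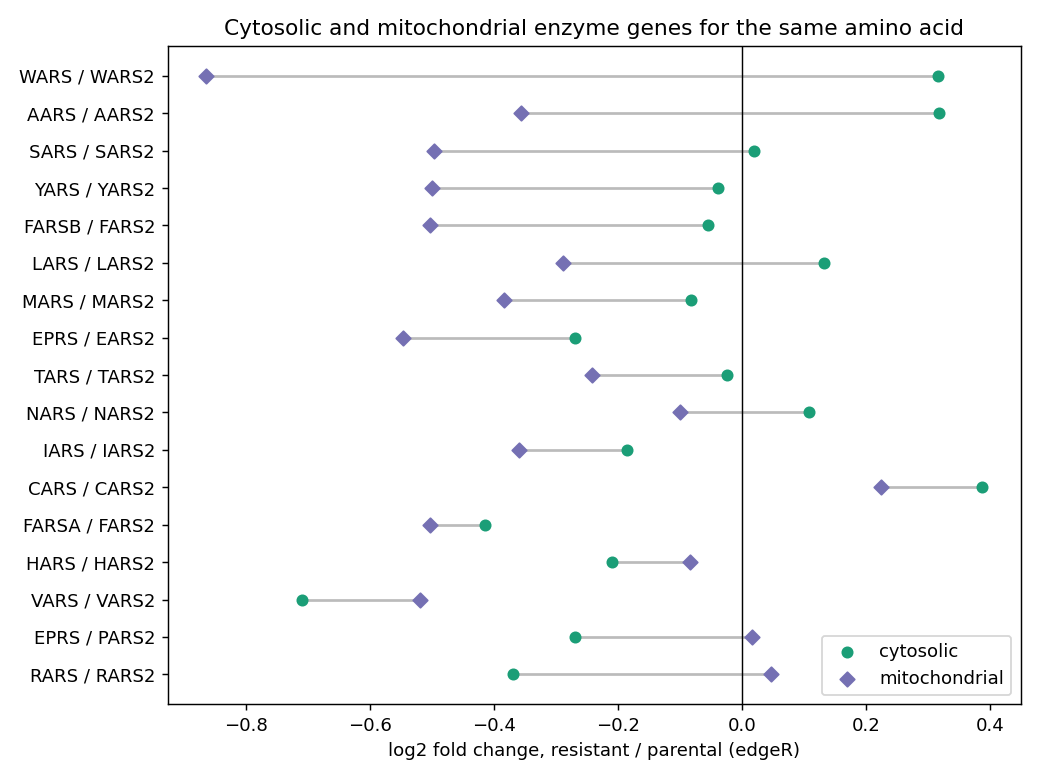
Fitted log2 fold change (resistant over parental, horizontal axis) of the cytosolic gene (green circle) and the mitochondrial gene (violet diamond) for the same amino acid, 17 comparisons ordered by their difference. The mitochondrial diamond lies to the left in 13 comparisons, and in 4 (HARS, VARS, EPRS against PARS2, and RARS) it lies to the right.

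The cytosolic genes were also split by what is known of their control. The splits by ATF4 and by complex were not among the planned counts. Their lists were chosen with earlier results of these data known. Of the 12 known ATF4 targets 5 rose (CARS, AARS, WARS, LARS and NARS), 2 fell (IARS and EPRS) and 5 did not pass, with a median log2 fold change of -0.0027. Of the 8 others 0 rose and 7 fell, with a median of -0.31, and FARSB did not pass. For these 8 the count of rises was 0 at an unadjusted p under 0.05 in edgeR and 0 in DESeq2 as well. Across the fits that left out 1 library, 3 to 5 of the 12 were higher and 2 lower, and 0 of the 8 were higher and 6 to 8 lower. The 5 rises of the 12 became 3 without parental replicate 1 or 3 and without resistant replicate 1 or 3. Of the 8 enzymes of the multi-synthetase complex (EPRS, IARS, LARS, MARS, QARS, RARS, KARS and DARS) 6 fell and only LARS rose, with MARS not past the threshold. The 6 became 4 with library sizes alone and on FPKM, and 2 on unfiltered FPKM. The rise of LARS, the 1 higher, became 0 without parental replicate 1 or 3, without resistant replicate 1 or 3, with no filter and on FPKM. Of the 12 outside it 4 rose and 3 fell. The splits by ATF4 and by complex share calls, since QARS, RARS, KARS and DARS fell, sit in the complex and are outside the ATF4 list. By the class of catalytic fold, EPRS was counted in class I alone, although its proline activity belongs to class II. So counted, 5 of 10 class I genes fell and 3 rose, and 4 of 10 class II genes fell and 2 rose. These shares stand beside the 26.5% lower and 27.3% higher among all genes.

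A list of 10 genes, chosen with earlier results of these data known, covered amino acid sensing and the ATF4 response. Of these 7 rose (70.0%, against 27.3% of all tested genes), 2 fell (20%, against 26.5%) and 1 did not pass, with a median log2 fold change of 0.33. The rises were ATF4, its partner and target genes DDIT3, CEBPB, ASNS, TRIB3 and PPP1R15A, and the sensor SESN2. Of the genes that carry the signal to ATF4, EIF2AK4 and EIF2B5 fell and EIF2S1 did not pass. DDIT3, a transcription factor downstream of ATF4, rose 2.51-fold from 15.3 ± 0.867 to 38.6 ± 1.96 CPM (SD, n = 3; edgeR adjusted p = 1.4e-08). SESN2, a leucine sensor, rose 2.002-fold, CEBPB, a transcription factor that pairs with ATF4, 1.97-fold, and ASNS, the asparagine synthetase and an ATF4 target, 1.59-fold. ATF4 mRNA itself rose 1.14-fold, with 317, 378 and 318 CPM in the parental and 388, 394 and 374 CPM in the resistant libraries. The ATF4 groups overlapped through parental replicate 2 (edgeR adjusted p = 0.031). ATF4 is controlled mainly at translation, which was not measured. The kinase gene EIF2AK4 fell 1.14-fold (edgeR adjusted p = 0.0046), as did EIF2B5 at -0.19 on the log2 scale. Neither EIF2AK4 nor EIF2B5 passed with library sizes alone or on FPKM.

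A list of 7 genes of tRNA export and delivery to the ribosome was also chosen with earlier results of these data known. Of these 6 fell (85.7%, against 26.5% of all tested genes) and 1 rose (14.3%, against 27.3%). XPOT, which exports tRNA from the nucleus, rose 1.33-fold from 239 ± 10.1 to 318 ± 12.4 CPM (SD, n = 3; edgeR adjusted p = 2.2e-05). EEF1D, a subunit of the elongation factor 1 complex in which VARS also sits, fell 1.52-fold from 411 ± 25.7 to 271 ± 8.41 CPM (edgeR adjusted p = 1.8e-06). EEF1B2 and EEF1G, other subunits of that complex, had log2 fold changes of -0.33 and -0.35, and EEF1A1 and EEF1A2, which bring tRNA to the ribosome, -0.29 and -0.31. TUFM, the mitochondrial elongation factor, fell by 0.33 on the log2 scale. Of the 3 scaffold genes AIMP2 and EEF1E1 fell 1.23-fold and 1.22-fold, and AIMP1 did not pass.

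Lists of 4 or 5 genes of neighbouring steps are too short to read against the 26.5% lower and 27.3% higher among all tested genes, and are given by gene. Of 4 genes of mitochondrial amidation and formylation GATB and MTFMT fell, with log2 fold changes of -0.27 and -0.20, and GATC and QRSL1 did not pass. Of 5 synthetase-like and editing genes AARSD1, DALRD3, DTD1 and TARSL2 fell, with log2 fold changes of -0.35, -0.26, -0.25 and -0.23, and DTD2 did not pass. TARSL2, now named TARS3, is a further threonine enzyme gene whose older symbol falls outside the rule for members. Of 4 genes of the selenocysteine pathway SEPHS2 rose at 0.20 and SEPSECS fell at -0.34 on the log2 scale.

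**Figure D5:**
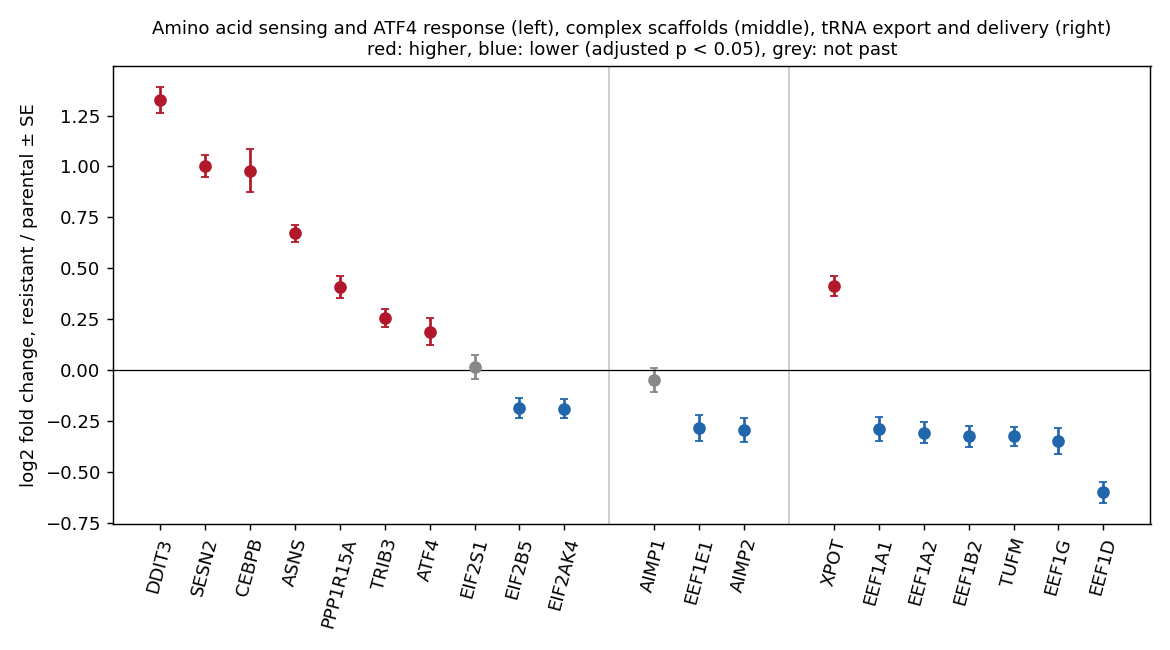
Fitted log2 fold change (resistant over parental, vertical axis) with its SE for 10 genes of amino acid sensing and the ATF4 response (left), 3 scaffold genes (middle) and 7 genes of tRNA export and delivery (right); red marks genes past the threshold higher, blue lower and grey not past. DDIT3 is highest at 1.33, XPOT is the only red point of the right group, and EEF1D is lowest at -0.60.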

How the data were processed

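The authors deposited raw read counts for every gene, used here as they stand. A second table deposited by the authors was taken as FPKM from its values, since its header names no unit. Per the labels' protocols, a SMARTER kit was used on total RNA. Builds in the submitters' processing notes are GRCm38 and mm10. Not given in the sources used here are the aligner, the counting program and its strand setting. Identifiers were used as deposited. The mouse reference was not used, so no coordinates or sequences are given.

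Groups and numbers came from sample titles, and columns were assigned through descriptions. Counts were tested with edgeR 4.0.16 (R 4.3.3; TMM, filterByExpr, robust quasi-likelihood fit, two-sided, Benjamini-Hochberg, threshold 0.05). SE is the absolute log2 fold change divided by the square root of F. CPM are TMM-scaled. FPKM per CPM uses unscaled library totals. FPKM were tested with limma 3.58.1 on log2(FPKM + 1 or 0.1) at a mean of at least 0.5 FPKM, or unfiltered, where fold changes are on that scale and understate low genes. DESeq2 1.42.0, other scalings and filters, a replicate block and omission of each library were alternatives. On simulated data of this comparison (16386 genes fitted) edgeR recovered 34 of 50 genes changed 1.25-fold, 48 of 50 changed 1.5-fold and all with larger changes, and called 8 unchanged genes. Far fewer genes were changed there than the 53.8% of tested genes called here, so these rates may not carry over.

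Members and lists were chosen with earlier results of these data known. The rule found 37 genes, of which 1 is not reported here and enters no count, sum or median of members. Every other member could be named. Values in every library were set for called members that moved by 0.5 or more on the log2 scale, their partners, and the extremes of level. The library values of CARS, AARS, CARS2 and ATF4, and the choice of other genes described at length, were added after values were seen.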

Additional observations from a re-analysis of the deposited data

How the results depend on the processing

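None of the 36 members changed direction while past the threshold under the alternatives run. For genes outside the members, changes of direction under the alternatives were not recorded gene by gene. The 5 cytosolic genes higher became 3 with no filter on low counts and 3 to 5 when 1 library was left out. They became 4 with RLE scaling, in DESeq2 and on unfiltered FPKM. The 9 cytosolic genes lower became 6 with library sizes alone and 6 on FPKM with a pseudocount of 1 or 0.1. They became 4 on FPKM with a pseudocount of 1 and no filter. With at least 1 CPM in 3 libraries they became 8, and 8 to 10 when 1 library was left out. The 1 mitochondrial gene higher became 2 with library sizes alone. The 11 mitochondrial genes lower became 6 on FPKM with a pseudocount of 1, 7 with 0.1, 5 with 1 and no filter, and 10 to 11 when 1 library was left out. With library sizes alone they became 10. The 4399 genes lower among all tested became 2637 and 2659 on FPKM with pseudocounts of 1 and 0.1, and 2157 with no filter. With library sizes alone they became 3146, and the 4534 genes higher became 5933. The cause of these shifts was not tested. Over 36 members and 15 alternatives each, a member stayed on its side of the threshold 482 times, lost its call 53 times and gained one 5 times.

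Replicate numbers are shared by the groups in the labels. Deviations of same-numbered libraries correlated at 0.0741, 0.136 and 0.0103, and those of differently numbered libraries at -0.146 to 0.0945. Parental replicate 3 correlated best with resistant replicate 1. So few correlations cannot decide whether the numbers mark pairs or batches. With the replicate number as a block 9 cytosolic genes were lower and 5 higher, 11 mitochondrial genes were lower and 1 higher, and no member's call changed. Among all genes the block gave 4996 higher and 4994 lower, against 4534 and 4399 without it. FARS2 and PARS2, with the fewest counts, had the widest standard errors, 0.13 and 0.10.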
